A study of Drosophila melanogaster with 6 samples.

Results

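Transcripts of 2 genes of the insulin pathway, InR and Pdk1, were followed in HB10 cells of Drosophila melanogaster after a shift to cool temperature. They were read by 9 of the 32162 probes of an Agilent microarray, chosen as a fixed list of probe names: 6 probes for InR and 3 for Pdk1. HB10 is a line established from embryos with ubiquitous expression of UASt-ras85D V12, an activated form of Ras, driven by Act5C-GAL4, so that the cells at both temperatures carry this background and come from 1 line. Culture aliquots were kept for 36 h at 24 °C. The aliquots of the cool group were then moved to 14 °C for 24 h, whereas those of the other group were left at 24 °C for the same 24 h, and total RNA was isolated from 3 biological replicates per temperature. Each RNA was labelled with Cy3 and hybridized to 1 array. P-values thus measure the spread between aliquots of 1 line.

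InR encodes the insulin-like receptor, a receptor tyrosine kinase that is bound by the insulin-like peptides of the fly. The activated receptor recruits the substrate chico and phosphatidylinositol 3-kinase, whose lipid product brings the kinases Pdk1 and Akt1 to the membrane. There Pdk1 phosphorylates Akt1 in its activation loop, and in the same way it acts on S6k and other kinases of the AGC family. Akt1 keeps the transcription factor foxo out of the nucleus, and when insulin signaling is low, nuclear foxo is known to activate genes that include InR itself and the translation inhibitor Thor. The pathway couples growth and metabolism of fly cells to nutrition.

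The 6 InR probes carry the array names A_09_P030011, A_09_P051801, A_09_P133465, A_09_P144115, A_09_P145670 and A_09_P176140, written below without the leading A_09. All 6 are assigned by the scanner files to the same transcript, FBtr0084121. The Pdk1 probes A_09_P032306, A_09_P048946 and A_09_P103920 are assigned to 3 transcripts, FBtr0072465, FBtr0072468 and FBtr0072466. The scanner files name the build dm3 but give neither gene symbols nor probe sequences, and where in the gene a probe lies is not given in the sources used here. In RefSeq (Release 6 plus ISO1 MT), InR lies on chromosome arm 3R and has 4 transcripts that encode 4 listed proteins. The long non-coding RNA genes lncRNA:Irar and lncRNA:CR44034 lie within its span, and its coding neighbours are CG15498 and E2f1. Pdk1 lies on arm 3L with 9 transcripts and 9 listed proteins. The gene lncRNA:CR45805 lies within its span, and its coding neighbours are CG12483 and CG6845.

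The scanner software called 57.7 to 59.4% of the 43602 gene spots of an array well above background, and saturated spots numbered 0. The array of replicate 2 at 14 °C was the dimmest, with an unscaled 75th percentile of 923, while the other 5 arrays had 1394 to 1684.5. Of the few cell type markers that could be linked to a probe, the muscle precursor marker twi was well above background on all 6 arrays, with 13.69 ± 0.18 at 14 °C and 13.93 ± 0.11 at 24 °C (log2 intensity, SD, n = 3), the hemocyte marker srp was above background on 0 arrays, and ush, also used as a hemocyte marker here, was above it on 6, with 9.57 ± 0.19 at 14 °C and 9.30 ± 0.05 at 24 °C. Neither twi nor ush passed the test between the temperatures (adjusted p 0.128 and 0.0896 in limma), and the part of these cell types in the results was not tested. The other 5 of 6 muscle precursor and 5 of 7 hemocyte markers had no named probe. The arrays lay on 2 slides. Slide 1 held replicate 1 of both temperatures, and slide 2 held replicates 2 and 3 of both.

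InR transcripts measured higher after 24 h at 14 °C on all 6 member probes, and Pdk1 transcripts on all 3. For each of the 9 probes, the 3 values at 14 °C lay above the 3 values at 24 °C. Such a separation was seen for 19.5% of the 18789 tested probes in this direction, and for 21.1% in the opposite one. In limma, 4 of the 6 InR probes and 1 of the 3 Pdk1 probes passed the test, which is an adjusted p under 0.01 over all tested probes, while 6.13% of the tested probes passed it with higher levels at 14 °C and 5.78% with lower levels. In counts these were 1151 probes higher and 1086 lower, and with scaling to the 75th percentile 824 higher and 498 lower. None of the 9 members reached a 2-fold change, whereas 0.591% of the tested probes were at least 2-fold higher at 14 °C with an adjusted p under 0.01. As bulk RNA was measured, more transcript per cell and a larger share of cells with the transcript cannot be told apart. The study named InR and Pdk1 among genes with higher levels in the cool in both HB10 and S2R+ cells. That choice rested in part on these arrays, so the direction of both genes here is not independent evidence.

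Among the receptor probes, P030011 had the largest fold change. Its log2 intensity was 13.01, 13.23 and 13.02 in replicates 1 to 3 at 14 °C, and 12.37, 12.11 and 12.03 at 24 °C. The lowest cool array was thus 0.64 above the highest warm one. The means of 13.09 ± 0.13 at 14 °C and 12.17 ± 0.18 at 24 °C (SD, n = 3) differ by a log2 fold change of 0.92 (SE 0.11, 95% interval 0.67 to 1.16). This 1.89-fold rise passed the test in limma (adjusted p 0.000508). Of all tested probes, 0.82% had a larger rise. This probe is spotted 2 times on each array, and the 2 spots were averaged by their median. Its link to InR comes from the transcript identifier that it shares with the other InR probes, not from the annotation of the study.

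The probe P133465 had 10.30, 10.06 and 10.41 at 14 °C, and 9.52, 9.27 and 9.40 at 24 °C. It rose by 0.86 (SE 0.11, 95% interval 0.62 to 1.11, 1.82-fold, adjusted p 0.000686 in limma), and the gap between the groups was 0.54. On P176140 the log2 intensity was 11.34, 10.96 and 11.19 at 14 °C and 10.52, 10.37 and 10.20 at 24 °C. This rise by 0.80 (SE 0.12, 95% interval 0.54 to 1.06, 1.74-fold) had an adjusted p of 0.00156, with a gap of 0.45. In these 2 probes, as in P030011, the arrays of a group lay close together compared with the step between the temperatures.

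On P145670, values of 10.78, 11.11 and 11.35 at 14 °C stood against 10.30, 10.37 and 10.21 at 24 °C. The rise was 0.79 (SE 0.13, 95% interval 0.49 to 1.08, 1.72-fold), and the adjusted p in limma was 0.00312. The cool arrays spread more than the warm ones here, with an SD of 0.29 at 14 °C and 0.08 at 24 °C. The call was lost when replicate 2 at 14 °C was left out (adjusted p 0.0106), and also when replicate 1 (0.0188) or replicate 3 (0.0107) at 24 °C was.

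The remaining InR probes did not pass the test. P051801 had 9.89, 10.35 and 10.67 at 14 °C, and 9.66, 9.69 and 9.62 at 24 °C, a difference of 0.65 on the log2 scale (SE 0.17, 95% interval 0.27 to 1.02, adjusted p 0.0205). Its 3 warm arrays agreed to within an SD of 0.03, while the cool arrays had an SD of 0.39, the largest among the 9 members. With the replicate number as a block this probe passed the test (adjusted p 0.00321), and likewise without replicate 1 at 14 °C, where the log2 fold change was 0.83 (adjusted p 0.00314). Its median signal before background correction was between 745 and 1717.

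P144115 had 8.54, 8.47 and 8.92 at 14 °C and 8.42, 8.24 and 8.25 at 24 °C. The log2 fold change was 0.34 (SE 0.12, 95% interval 0.07 to 0.62, adjusted p 0.0723), and the groups were only 0.05 apart. Without replicate 3 at 14 °C it was 0.19. The unscaled signals of this spot, 217 to 483 over a local background of 33 to 39.5, were the lowest among the 9 members. The scanner software nonetheless called it well above background on all 6 arrays.

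A further probe with the same transcript identifier, A_09_P051661, which is not a member, was not well above background on any array. Its values were 6.90, 6.92 and 6.82 at 14 °C and 6.88, 6.86 and 6.86 at 24 °C, over an unscaled signal of 59.5 to 87. It was not tested, and no fold change is given.

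Averaged over the 6 member probes, InR had 10.64, 10.70 and 10.93 on the arrays at 14 °C and 10.13, 10.01 and 9.95 on those at 24 °C. The means were 10.76 ± 0.15 and 10.03 ± 0.09 (log2, SD, n = 3), a difference of 0.73 or 1.65-fold. No test was made of this mean, since its members were chosen with earlier results known.

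For Pdk1, the log2 fold changes of the members were 0.28 to 0.53, and 1 of 3 passed. The probe P032306 had 11.99, 12.00 and 12.00 at 14 °C, the tightest group of all members, against 11.48, 11.55 and 11.36 at 24 °C. This 1.45-fold rise, by 0.53 on the log2 scale (SE 0.08, 95% interval 0.35 to 0.71), passed with an adjusted p of 0.00171. The gap between the lowest cool and the highest warm array was 0.44. The probe is spotted 2 times on each array. The call was narrowly lost when replicate 1 (adjusted p 0.0109) or replicate 3 (0.0112) at 24 °C was left out.

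The other member probes of Pdk1 did not pass. P103920 had 12.70, 13.24 and 12.80 at 14 °C, and 12.59, 12.49 and 12.62 at 24 °C, a log2 fold change of 0.35 (SE 0.13, 95% interval 0.05 to 0.65, adjusted p 0.0881). Replicate 2 at 14 °C, the dimmest array, was the high one, and without it the log2 fold change was 0.18. P048946 had 10.20, 10.15 and 10.37 at 14 °C and 10.10, 9.92 and 9.87 at 24 °C, a log2 fold change of 0.28 (SE 0.10, 95% interval 0.06 to 0.49, adjusted p 0.0637). For both probes the closest arrays of the 2 temperatures were less than 0.1 apart.

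The study assigns 1 more probe to Pdk1, A_09_P209390 on the transcript FBtr0302599, which is not a member. It had 10.44, 10.69 and 10.52 at 14 °C and 10.36, 10.27 and 10.14 at 24 °C, which are 0.29 apart on the log2 scale (SE 0.09, adjusted p 0.0503) and do not overlap. Another probe on this transcript, A_09_P223770, was not well above background on any array, with 6.95, 6.90 and 6.82 at 14 °C and 6.97, 6.93 and 6.88 at 24 °C. Averaged over the 3 members, Pdk1 had 11.63, 11.79 and 11.73 on the arrays at 14 °C and 11.39, 11.32 and 11.28 on those at 24 °C. The means were 11.72 ± 0.08 and 11.33 ± 0.05 (SD, n = 3), a difference of 0.39 or 1.31-fold, and this mean was not tested. Whether InR and Pdk1 differ in the size of their response was not tested either.

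All 9 members had a 95% interval above 0 and an unadjusted p under 0.05 in limma. Of the 18789 tested probes, 6793 had an unadjusted p under 0.05 in limma, with higher or lower levels at 14 °C. The intervals are not adjusted for the number of probes. A 2-fold rise lay inside the interval for 5 InR probes. For the other 4 members, P144115 and the 3 Pdk1 probes, the upper bound was below 2-fold (0.62, 0.71, 0.49 and 0.65 on the log2 scale for P144115, P032306, P048946 and P103920).

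Since the InR fold changes ranged from 0.34 to 0.92, the probes of each gene were compared with each other by the F test of diffSplice in limma, which asks whether the probes of a gene respond unequally. Probes without a symbol were grouped by their transcript identifier, so a unit of this test is a gene or a single transcript. For InR, with 6 tested probes, F was 1.90 and the adjusted p over 3199 units 0.604. For Pdk1, with 4 tested probes including P209390, F was 1.17 and the adjusted p 0.889. Among all units with at least 2 tested probes, 73 (2.28%) passed with an adjusted p under 0.01. Units without a symbol do not compare probes across transcripts, as that of Pdk1 does, so this share is not a like background for Pdk1. Set against the other InR probes, the fold change of the dim probe P144115 differed by -0.46 on the log2 scale (unadjusted p 0.00958, adjusted p over 7227 probes 0.154). P032306 differed from the other Pdk1 probes by 0.23 (adjusted p 0.529). Leaving out replicate 3 at 14 °C gave an F of 3.98 for InR (adjusted p 0.0836), and leaving out replicate 2 at 14 °C an F of 3.22 for Pdk1 (0.340). Without the filter on dim probes, which adds the probes not above background, F was 5.33 for InR (0.0229) and 4.33 for Pdk1 (0.142). With scaling to spots above background it was 3.45 for InR (0.402) and 1.98 for Pdk1 (0.618). None of these passed at an adjusted p under 0.01.

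Replicate arrays of the cool cells were not alike for these probes. Over the whole array, too, their lowest correlations were below those of the warm cells. The lowest correlation of an array with another of its temperature was 0.9936 to 0.9954 at 14 °C and 0.9974 to 0.9975 at 24 °C. The SD was larger at 14 °C than at 24 °C for 6 of the 9 members, 5 of them for InR. The share of all tested probes with a larger SD at 14 °C was not computed. Replicate 3 was the highest cool array for 6 members and the lowest for 0. Replicate 1 was the lowest cool array for 5 members and replicate 2 for 4, whereas replicate 2 was the highest for P030011 and P103920. At 24 °C, replicate 1 was the highest array for 5 members and replicate 3 the lowest for 6.

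The slides were therefore examined separately. On slide 1, with 1 array per temperature, the difference between 14 °C and 24 °C was 0.78 for P133465, 0.82 for P176140 and 0.64 for P030011. On the same slide it was 0.48 for P145670, 0.23 for P051801 and 0.13 for P144115. Among the Pdk1 probes it was 0.50 for P032306 and 0.10 and 0.11 for P048946 and P103920. On slide 2, with 2 arrays per temperature, it was 0.90 for P133465, 0.79 for P176140, 1.05 for P030011, 0.94 for P145670, 0.85 for P051801 and 0.45 for P144115, and among the Pdk1 probes 0.55 for P032306, 0.36 for P048946 and 0.47 for P103920. Thus all 9 members were higher at 14 °C on each slide, 2 of the InR probes and 1 Pdk1 probe by similar amounts on both slides, and the other 6 by less on slide 1. As the groups did not overlap for any member, the direction on each slide was already given and is no separate evidence. The difference between the slides was not tested, and with slide as a block in limma 4 InR probes and 1 Pdk1 probe passed. Of the 18789 tested probes, 1808 passed with this block (916 higher and 892 lower at 14 °C), beside 2237 without it.

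The calls also depended on the scaling between arrays. Before scaling, the intensities of the 2 temperatures did not overlap for 2 of the 9 members, P030011 and P145670, and overlapped for 7. The share of all tested probes without overlap before scaling was not computed. On P176140 the unscaled intensity was 3076, 1264 and 2436.5 at 14 °C, and 1386.5, 1308.5 and 1248.5 at 24 °C, where the low value at 14 °C belongs to the dimmest array. Scaling each array to its median in place of quantile normalization moved the median of all tested probes by 0.41 on the log2 scale, and scaling to the median of spots above background by -0.17. Under both, 0 members passed the test in limma, as did 0 of all tested probes, while at an unadjusted p under 0.05 there were 7 members under each, and 2334 and 4055 of all tested probes. With the corrected signal of the scanner software, and with its scaling to the 75th percentile, P030011 and P133465 passed, but P145670, P176140 and P032306 did not (adjusted p 0.0101 to 0.0142). Taken relative to the median of all tested probes, the 2 scalings to a median gave the same values, 1.22 for P030011, 0.98 for P133465 and P145670, 1.01 for P176140, 0.77 for P051801 and 0.26 for P144115, and 0.80, 0.42 and 0.65 for the Pdk1 probes P032306, P048946 and P103920.

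All 198 values of the 9 members under 22 alternatives each were above 0, but these values are not independent of each other. Changes such as those of the filter on dim probes or of the block left the fold change as it was. As the groups did not overlap for any member, leaving out 1 array or splitting by slide could not turn its sign. The lowest value was 0.09, for P144115 with scaling to the median of spots above background. The InR probes P030011 and P133465 passed the test in 18 of the 20 alternatives with a test, all but the 2 scalings to a median. P176140 passed in 16, P145670 in 13 and P051801 in 2 of the 20. The Pdk1 probe P032306 passed in 14 of the 20. P144115, P048946 and P103920 passed in 0 of the 20. Among these alternatives, leaving out 1 array moved P030011 between 0.84 and 1.02, and the highest of these values, without replicate 1 at 24 °C, lies past 2-fold.

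To place InR and Pdk1 in their pathway, the 31 genes on the study's curated list for insulin/TOR signaling were examined with 1 tested probe per gene, the brightest one. Only InR and the SH2B adaptor gene Lnk passed the test, both with higher levels at 14 °C, and 0 genes passed with lower levels (at an unadjusted p under 0.05, 8 genes were higher and 3 lower). This is 6.45% of the list beside 6.13% of all tested probes. The median log2 fold change was 0.02 for the list and -0.01 for all tested probes. Without InR and Pdk1, 1 of 29 genes passed and the median was 0.01. InR is represented here by P176140, as P030011 is not on the list of the study, and Pdk1 by P103920.

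Lnk, whose product acts together with the receptor and chico, had 12.26 ± 0.12 at 14 °C and 11.71 ± 0.06 at 24 °C (log2, SD, n = 3). It rose by 0.55 (SE 0.09, 1.47-fold, adjusted p 0.00216 in limma). Its call was lost when replicate 1 (adjusted p 0.0146) or replicate 2 (0.0160) at 24 °C was left out, and under 4 other scalings and signals (0.0126 to 0.380). The other 29 genes had values between -0.31 and 0.38, none of them past the test.

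Upstream of the receptor, the insulin-like peptide gene Ilp6 had -0.17 on the log2 scale (SE 0.08, adjusted p 0.158), and ImpL2, which encodes a secreted protein that binds insulin-like peptides, -0.29 (SE 0.16, adjusted p 0.218). The 4 tested probes of Ilp6 differed in sign, from -0.20 to 0.22. Next to the receptor, the substrate gene chico had 0.38 (SE 0.09, adjusted p 0.0168), with 12.39 ± 0.12 at 14 °C and 12.01 ± 0.10 at 24 °C. The kinase subunit genes Pi3K92E (catalytic) and Pi3K21B (regulatory) had 0.18 and -0.30, with adjusted p of 0.272 and 0.251. None of these genes passed the test by its brightest probe. Single arrays moved some of these values by over 1.5 times. Without replicate 3 at 14 °C, Pi3K21B had -0.51 (adjusted p 0.0114), ImpL2 -0.48 (0.0196) and Pi3K92E 0.09 (0.554), and without replicate 2 at 14 °C they had -0.18 (0.510), -0.10 (0.548) and 0.29 (0.0644).

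Downstream, the Pdk1 substrates Akt1 and S6k had log2 fold changes of 0.28 (SE 0.07, adjusted p 0.0189) and -0.12 (SE 0.13, adjusted p 0.587). For Akt1 the values of this brightest probe were 12.67 ± 0.02 at 14 °C and 12.38 ± 0.01 at 24 °C. Other probes of these genes differed in sign. The log2 fold changes ran from -0.03 to 0.28 over the 3 tested probes of Akt1, and from -0.19 to 0.34 over the 5 of S6k. The transcription factor gene foxo had 0.36 (SE 0.09, adjusted p 0.0215), with 10.09 ± 0.14 at 14 °C and 9.73 ± 0.08 at 24 °C, while Thor, the other foxo target considered, had -0.21 (SE 0.11, adjusted p 0.182). In the branch to the TOR kinase, Tor had -0.31 (SE 0.08, adjusted p 0.0163), with 13.90 ± 0.02 at 14 °C and 14.22 ± 0.07 at 24 °C. Its upstream regulators Tsc1, gig and Rheb had -0.04, -0.26 and 0.01, with adjusted p from 0.0717 to 0.973. The 4 tested probes of Rheb ran from -0.28 to 0.01. The GTPase genes RagA and RagC, whose products relay amino acids to TOR, had 0.33 (adjusted p 0.0523) and -0.31 (adjusted p 0.0363), and RagA passed only with the replicate number as a block (0.00900). Without replicate 3 at 14 °C S6k had -0.27 (adjusted p 0.0696), and without replicate 2 at 14 °C S6k had -0.02 (0.927) and Thor -0.13 (0.382), while Rheb changed sign between such fits (-0.05 to 0.05). At the less strict adjusted p under 0.05, 7 of the 31 genes passed, 5 higher and 2 lower. Of the 18789 tested probes, 2212 passed this limit with higher levels and 2291 with lower levels.

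Signs of these smaller values depended on the scaling. Of the 31 genes, 17 had a positive and 14 a negative log2 fold change, but under median scaling all 31 were positive. Under the scaling to spots above background 20 were positive, and relative to the median of all tested probes 26 of 31 were above it under both scalings. The values of Ilp6, ImpL2, Pi3K21B, Thor, Tor, gig and RagC were negative in all other alternatives with a test and positive under median scaling. Those of S6k and Tsc1 were positive under both scalings to a median.

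By probe, 64 probes belonged to the list, of which 6 (9.38%) passed with higher levels at 14 °C and 1 (1.56%) with lower levels. Of all tested probes, 6.13% passed with higher and 5.78% with lower levels. Those with higher levels included 3 probes of InR and 1 each of Pdk1 and Lnk. The InR and Pdk1 probes among them are members, chosen with earlier results known. The 1 with lower levels, named after its values were seen, belonged to Lk6, which encodes a kinase of the translation factor eIF4E. It fell by 0.60 (SE 0.10, adjusted p 0.00321), whereas the 4 other probes of Lk6 had -0.04 to 0.15. The call was lost without replicate 1 at 14 °C or any 1 array at 24 °C (adjusted p 0.0101 to 0.0204), with the scanner-corrected signal (0.0158) and with the other 3 scalings (0.0142 to 0.936), among which median scaling gave -0.05.

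Few relatives of both kinases had a named probe. Among 15 genes for receptor tyrosine kinases, the family of InR, 3 had a named probe and 2 were tested. The epidermal growth factor receptor gene Egfr fell by 0.45 on the brightest of its 3 tested probes (SE 0.09, adjusted p 0.00603 in limma). This probe had 8.60 ± 0.09 at 14 °C and 9.05 ± 0.10 at 24 °C. It was lower at 14 °C in all alternatives, by only 0.02 with median scaling, but its call held in only 1 of the 6 fits without 1 array, the one without replicate 3 at 14 °C. The call was also lost with slide as a block (adjusted p 0.0108), with the scanner-corrected signal (0.0166) and with the other 3 scalings (0.0179 to 0.961). The torso receptor gene tor had 0.27 (adjusted p 0.121, and 0.00864 without replicate 2 at 14 °C), and Drl-2 was not well above background. Among 18 genes for AGC kinases, the family of Pdk1 and its substrates, 5 were tested. Besides Akt1 and S6k, Gprk2, a kinase of G protein-coupled receptors, had 0.54 (SE 0.14, adjusted p 0.0238, and 0.00606 with the replicate number as a block), and 0.35 without replicate 3 at 24 °C. The kinase genes trc and gwl had -0.29 (adjusted p 0.169, but -0.45 and just past the test without replicate 3 at 14 °C) and 0.02 (adjusted p 0.933). The genes tor, Gprk2 and trc had 2 tested probes each. For these genes and Egfr, only the brightest tested probe is given.

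Finally, genes with a pattern across the arrays like that of InR or Pdk1 were sought among 2891 tested probes of 1997 named genes, by the smallest root-mean-square difference from the centred mean of the members over the 6 arrays. For InR they were Snoo (0.06 log2 units, r = 0.992), CG34454 (0.08, r = 0.981), the FGF ligand gene ths (0.08, r = 0.977), sano (0.09, r = 0.976) and mgl, the gene for the endocytic receptor megalin (0.09, r = 0.979). For Pdk1 they were the homeobox gene ct (0.04, r = 0.977), BG642167 (0.05, r = 0.975), CG43736 (0.05, r = 0.985), Stt3B, which encodes a subunit of the oligosaccharyltransferase (0.05, r = 0.977), and the hnRNP gene Hrb87F (0.05, r = 0.966). As the 6 points fall into the 2 temperatures and share their arrays, these correlations describe mostly the step between the temperatures. The fold changes of the 5 genes near InR were 0.63 to 0.78, and those of the 5 near Pdk1 0.32 to 0.39.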

How the data were processed

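Each of the 6 arrays was a single-colour Agilent Drosophila V2 array read with Feature Extraction 10.7.3.1, per the file headers. The authors deposited the spot and local background intensity (median pixel value, linear scale, not corrected), flags of the scanner software and its own corrected intensity. They also deposited log2 values per probe, made with normexp, quantile normalization and surrogate variables according to their methods. Their scale is not stated with them and was inferred from the scanner files (fold changes correlated with r = 0.999 across 18789 probes, array medians 7.015 to 7.03). Surrogate variables were not computed here, and the first residual component stood in as an alternative.

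Intensities of all spots were corrected with normexp (offset 50), control and outlier spots were left out, log2 values were quantile-normalized, and repeated spots were summarized by their median. A probe was tested where at least 50% of its spots were well above background on at least 2 of 3 arrays of 1 group. All 9 members passed this filter on all 6 arrays, with 0 outlier or saturated spots. The temperatures were compared with limma (lmFit, eBayes, two-sided, Benjamini-Hochberg over 18789 probes, adjusted p under 0.01) without covariates, and fold changes are 14 °C over 24 °C. The probes of a gene, or of a transcript identifier where no symbol was known, were compared with diffSplice. The code of the fits was tried on simulated data with independent normal noise per probe and no effect shared by an array or slide. This is no test of the calls made here. R 4.3.3, limma 3.58.1, Python 3.11.15 and pandas 2.3.3 were used.

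The main fit, from which the p-values come unless stated otherwise, did not pair the arrays. Only the replicate block took the replicate numbers in the labels to pair them. The deviations from the group means correlated between arrays of the same number (0.20, 0.30 and 0.39 for replicates 1 to 3). Between arrays of different number the correlations were -0.30 to 0.05. Deviations within a group are not independent of each other, so this is weak ground for a pairing. This pairing comes from the data and, for replicate 1, from the shared slide. The number of arrays limits the precision.

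Symbols came from the annotation of the study, of which only part was read, from shared transcript identifiers and from RefSeq, for 4073 of 32162 probes (12.7%). The text names all members and further probes of both genes, the insulin/TOR genes past the test with core genes of the pathway (1 of them is not reported here), the tested relatives and the 5 genes most like each pattern. Members and lists were chosen with earlier results of these data known.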

Additional observations from a re-analysis of the deposited data

How the results depend on the processing

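All 9 members kept their direction under the alternatives tried, some of which could not change it, as stated above. With scaling to the median, log2 fold changes of the probes past the test were 1.62 (P030011), 1.39 (P133465), 1.39 (P145670), 1.41 (P176140) and 1.21 (P032306), and with scaling to spots above background 1.04, 0.81, 0.81, 0.83 and 0.63, none past the test. With the scanner software's own corrected signal P145670 (0.85), P176140 (0.90) and P032306 (0.57) did not pass, nor did they (0.84, 0.90 and 0.58) with the 75th percentile scaling. The mean over the InR probes was 1.28 and that over the Pdk1 probes 1.03 with scaling to the median. On slide 1 alone P030011 (0.64), P051801 (0.23), P144115 (0.13), P145670 (0.48), P048946 (0.10) and P103920 (0.11) moved by more than the SD between replicates pooled over both temperatures. The cause of these shifts was not tested.

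The number of probes past the test was 4 for InR, 1 for Pdk1 and 2237 of all tested, and 2 genes of the insulin/TOR list. It was 2, 0, 1294 and 0 with the scanner-corrected signal, 2, 0, 1322 and 0 with the 75th percentile scaling and 0, 0, 0 and 0 with both scalings to a median. With the additional 2-fold limit it was 0, 0, 175 and 0. An adjusted p under 0.05 gave 5, 1, 4503 and 7, and the first residual component gave 4 list genes, with chico and Tor added. That component comes from the residuals of these same arrays and left the fold changes unchanged. It takes up residual spread, and calls over all tested probes rose to 3339, so the added calls are no separate evidence.

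With the replicate block the counts were 5, 1, 3311 and 3. The block added the calls of P051801, RagA and Gprk2 and changed no other call among the genes named.

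Leaving out 1 array gave 3 to 5 InR probes, 0 to 1 Pdk1 probes, 1 to 2 list genes and 794 to 2272 of all tested probes. Over all tested probes the count was 1182 without replicate 1 at 14 °C, and 794, 845 and 1120 without replicates 1, 2 and 3 at 24 °C. The ranges of the log2 fold change were 0.84 to 1.02 for P030011, 0.46 to 0.83 for P051801, 0.78 to 0.96 for P133465, 0.19 to 0.43 for P144115, 0.65 to 0.92 for P145670, 0.70 to 0.90 for P176140, 0.49 to 0.58 for P032306, 0.21 to 0.34 for P048946 and 0.18 to 0.46 for P103920.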
